A study of Mus musculus with 2 samples.

Results

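The regions described here are 644 runs of neighbouring array probes in GC-rich DNA, out of 1017 enriched runs found in a chromatin immunoprecipitation of Tcf3 from mouse embryonic stem cells. A run was 3 or more consecutive probes, each within 1000 bp of the next and each with a log2 ratio of immunoprecipitate over input of 1.2 or more above the array median, which is 2.30-fold. A run was counted as GC-rich when its probes had a mean G+C content of 60% or more. The members were therefore chosen by the measured ratio and by base composition, and both are given below as descriptions without a test. The other 373 runs lay in DNA of lower G+C content.

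Tcf3 (gene Tcf7l1) is an HMG-box protein of the Tcf/Lef family, the transcription factors at the end of the canonical Wnt pathway. In embryonic stem cells it is known mainly as a repressor of genes of the pluripotency network, together with corepressors of the Groucho/Tle family. Its box contacts an AT-rich core, CTTTG followed by A or T at both of the next positions. GC-rich mammalian promoters are mostly CpG islands, stretches in which the CpG dinucleotide has not been depleted and which are usually unmethylated.

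The material was the mouse embryonic stem cell line E14, grown without feeder cells, with no treatment named and no second genotype. Cross-linked chromatin was immunoprecipitated, and both this DNA and the input DNA were amplified by PCR through ligated linkers before labelling. The immunoprecipitate carried Cy5 and the input Cy3 on each of 2 Agilent promoter arrays. The labels list several antibodies, and that the arrays were made with the one against Tcf3 rests on the titles of the samples. The arrays carried different probes, so that no probe was measured in replicate, and no control immunoprecipitation is among the samples. No gene expression was measured, so the cell type could not be checked against marker genes. Autosomal probes measured in both channels, called kept probes here, numbered 164395 of 237195 on array 1 and 108684 of 219593 on array 2. With 1 array per probe, SD values below describe the scatter between neighbouring probes of a run and not the error between experiments.

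The highest run lay at chr19:6323457-6323999 and was annotated to Nrxn2, which encodes a presynaptic adhesion protein, a neurexin. Its 4 probes and the nearest kept probe on each side are shown, with CpG dinucleotides in capitals, because they show the change in ratio and in sequence across the edges of a run. Coordinates of probes are those of the array design, whose genome build the sources used here do not name.
probe before the Nrxn2 run (chr19:6323262-6323306): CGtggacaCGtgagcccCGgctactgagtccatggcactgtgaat
Nrxn2 probe 1 (chr19:6323457-6323501): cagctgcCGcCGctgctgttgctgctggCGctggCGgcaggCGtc
Nrxn2 probe 2 (chr19:6323619-6323663): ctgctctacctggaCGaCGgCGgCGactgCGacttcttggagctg
Nrxn2 probe 3 (chr19:6323732-6323776): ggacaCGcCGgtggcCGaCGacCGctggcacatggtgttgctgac
Nrxn2 probe 4 (chr19:6323955-6323999): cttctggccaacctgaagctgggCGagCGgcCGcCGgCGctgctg
probe after the Nrxn2 run (chr19:6324111-6324155): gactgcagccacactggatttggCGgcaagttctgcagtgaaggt
The probes of the run had log2 ratios of 3.59, 3.16, 3.32 and 2.91 in this order. The probe before it was at 0.01 and the probe after it at 0.64. Each probe of the run held 5 CpG dinucleotides, against 3 in the probe before and 1 in the probe after. The G+C content of the run probes was 64.4% to 75.6%, against 60% before and 55.6% after it.

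After the median ratio of all kept probes of the same G+C content had been subtracted (in 2% bins, separately by array), the Nrxn2 run was still the highest, with a mean of 2.15. Others among the highest by this measure were the runs of Cdk5r1, which encodes the activator of the kinase Cdk5, Snx13, a sorting nexin, Pwwp2b and Lypla1, an acyl-protein thioesterase. In the Lypla1 run a probe of 36.7% G+C stood at 3.75 after the subtraction, and the others at 1.07, 1.46, 1.55 and 1.73. Of each run just named, the probe with the highest ratio before the subtraction is printed with its CpG dinucleotides in capitals.
Cdk5r1 (chr11:80558430-80558474): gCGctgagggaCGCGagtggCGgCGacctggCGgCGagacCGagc
Snx13 (chr12:32896002-32896046): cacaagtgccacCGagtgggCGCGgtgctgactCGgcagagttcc
Pwwp2b (chr7:135662342-135662386): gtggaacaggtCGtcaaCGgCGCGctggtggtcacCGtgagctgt
Lypla1 (chr1:4803600-4803644): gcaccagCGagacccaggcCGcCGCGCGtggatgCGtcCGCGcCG
Their log2 ratios were 3.64 for Cdk5r1, 3.12 for Snx13, 3.61 for Pwwp2b and 3.62 for Lypla1. They held 8, 4, 5 and 9 CpG dinucleotides in the same order. For contrast, 2 probes outside any run, of 66% to 72% G+C, with ratios at or below the array median and among the brightest of these in the input, are shown. They were chosen after their values were seen.
2700094K13Rik (chr2:84513925-84513969): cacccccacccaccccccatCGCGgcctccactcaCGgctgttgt
Hadhsc (chr3:131108590-131108634): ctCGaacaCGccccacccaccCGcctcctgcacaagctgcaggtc
The 2700094K13Rik probe had a log2 ratio of -0.66 and the Hadhsc probe one of -0.17. Both held 3 CpG dinucleotides.

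Over all kept probes, 10.7% had a log2 ratio of 1.2 or more, and among the 23750 kept probes of 60% G+C or more this share was 37.2%. Of 12228 windows of 3 successive kept probes with a mean G+C content of 60% or more, 7.44% had all 3 probes past the threshold, and of 200995 such windows of lower G+C content, 0.239% did. The shares rest on the values that chose the runs and are given as their background. GC-rich probes were also measured more often: 99.9% of them on array 1 and 99.4% on array 2 gave a signal in both channels, against 67.7% and 46.7% of the probes of lower G+C content.

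**Figure D1:**
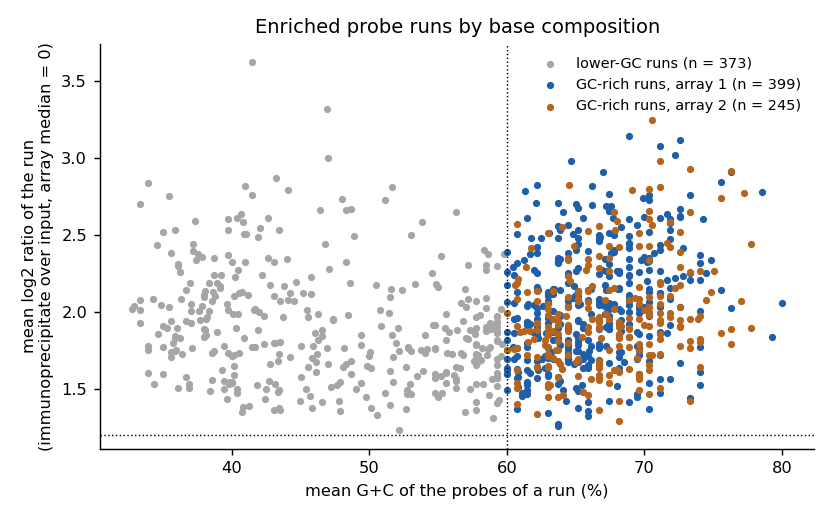
Mean log2 ratio of each enriched run (vertical axis, array median at 0) against the mean G+C content of its probes in percent (horizontal axis), with GC-rich runs coloured by array, lower-GC runs in grey and dotted lines at 60% and 1.2. The 644 GC-rich runs lie between 1.26 and 3.25, and the highest of all runs, at 3.62, is in the lower-GC set.

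The mean log2 ratio of the 644 runs ranged from 1.26 to 3.25, with a median of 1.97, or 3.93-fold. The lower-GC runs covered 1.23 to 3.62, with a median of 1.85. A run of GC-rich DNA had 3 probes in 445 cases, 4 in 141, 5 in 39 and 6 or more in 19. The distance from the first to the last base was 253 to 1615 bp, with a median of 445.5 bp. Within a run the highest and the lowest probe differed by a median of 1.06. In 17 runs, 1 or more probes without a measured signal lay between the kept ones.

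Array 1 held 399 of the runs and array 2 held 245. Their median ratios were 2.03 and 1.93. Array 1 had 9.48% of its GC-rich windows past the threshold and array 2 had 5.39%, a difference between arrays of different chromosomes that was not tested. By chromosome the share went from 3.61% (the 83 windows of chromosome 9 on array 1) to 11.7% (chromosome 6). Chromosome 9 was the only chromosome divided between the arrays, and its 590 windows on array 2 gave 6.44%.

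Some runs lay at the edge of the definition. Just inside the G+C threshold, at a mean of 60%, were runs of Nkx6-2, Lrrc8c and 5330438I03Rik, with mean log2 ratios of 2.39, 2.26 and 2.07. Just outside it were runs of Ube2f at 59.8%, Col27a1 at 59.7% and an unnamed stretch of chromosome 5 at 59.6%. Ccdc92, Calm2 and Rap2a had a lowest probe at 1.201, 1.202 and 1.202, just above the threshold on the ratio. Stretches at Htra1, Csrnp1 and Bmper missed it through 1 probe each, at 1.1999, 1.199 and 1.198.

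**Figure D2:**
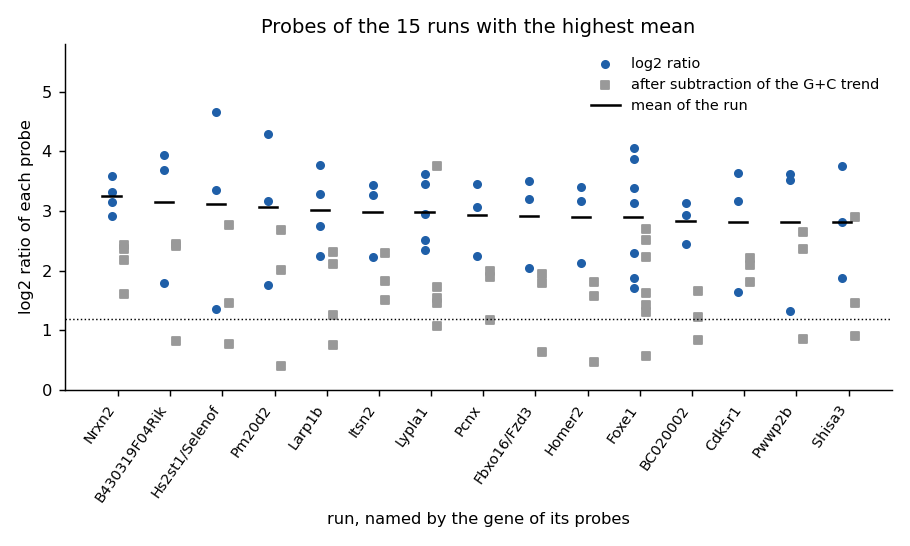
Log2 ratio of each probe (vertical axis) in the 15 runs with the highest mean (horizontal axis, named by gene), as measured (blue points, with a black line at the mean) and after subtraction of the trend with G+C content (grey squares). The dotted line marks 1.2; the 4 Nrxn2 probes lie between 2.91 and 3.59, while the 3 probes of the Hs2st1/Selenof run spread from 1.35 to 4.66.

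Below Nrxn2, runs with high means fell in genes of varied function. The run of Larp1b, a La-related RNA-binding protein, had 4 probes at 3.28, 2.25, 3.78 and 2.75. That of Itsn2, an endocytic scaffold protein, had 3 probes at 3.27, 3.43 and 2.24. In both, every probe was more than 1 log2 unit above the threshold. The run shared by Hs2st1, a heparan sulfate sulfotransferase, and Selenof, a selenoprotein, had probes at 3.35, 4.66 and 1.35, so that 1 probe was near the threshold and the mean of 3.12 rested on the other two. Runs of B430319F04Rik, Pm20d2, Pcnx, Homer2 (a postsynaptic scaffold protein), BC020002 and Shisa3 had means of 3.14, 3.07, 2.93, 2.90, 2.84 and 2.82.

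The runs with most probes were not those with the highest ratios. The run of Tmem158 had the most, with 9 probes at 1.62, 2.29, 2.501, 1.46, 2.15, 1.88, 1.62, 1.26 and 2.07, and a mean of 1.87 ± 0.41 (SD over probes). Foxe1, a forkhead factor of thyroid development, had 7 probes at 1.72, 2.29, 1.88, 3.13, 4.05, 3.87 and 3.38. Its 4 high probes were adjacent, and the 3 lower ones lay to their left. Foxe3, a forkhead factor of the lens, also had 7 probes, with values of 2.26, 4.04, 3.46, 1.44, 1.57, 1.26 and 1.66. Here 2 adjacent probes carried the high values and 4 of the 7 were under 1.7. Runs of 6 probes included those of Pura and Cebpb, with means of 2.53 and 2.503.

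Some of the runs extended into DNA of low G+C content. In 66 of the 644 (10.2%) a probe of under 50% G+C was past the threshold, and 16 of these 67 probes held no CpG. The Lypla1 run had probes at 2.34, 2.96, 2.51, 3.62 and 3.46, and the last of these had a G+C content of 36.7% and 1 CpG. In this run 1 probe without a measured signal lay between the kept ones. The Cdk5r1 run opened with a probe of 46.8% G+C at 1.65, below its other two at 3.64 and 3.17. In 326 runs every probe had 60% G+C or more.

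**Figure D3:**
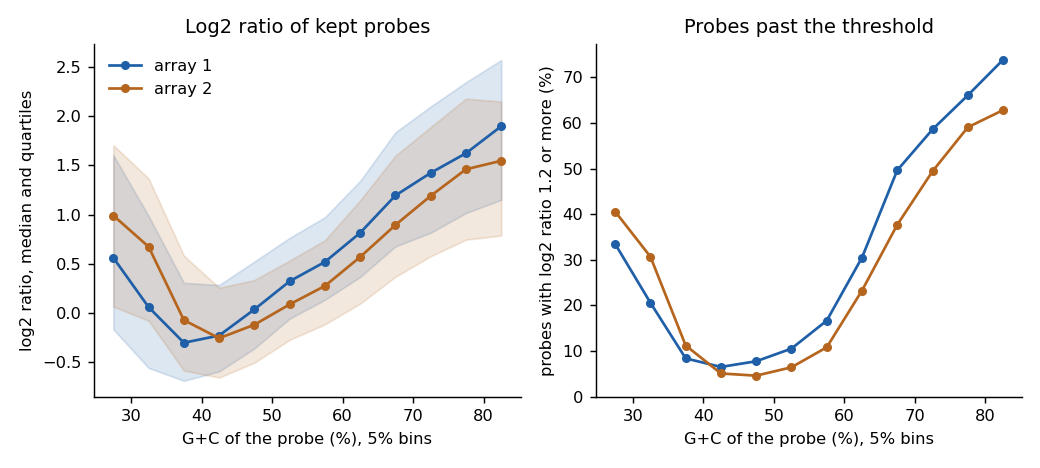
Left, log2 ratio of all kept probes (median line and shaded quartiles) in 5% bins of the probe's G+C content, by array; right, percent of those probes at 1.2 or more. Both panels have a minimum between 35% and 50% G+C and rise on either side, to 73.8% of probes past 1.2 at 80% to 85% G+C on array 1 and 62.8% on array 2.

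The log2 ratio of all kept probes changed with G+C content, and the runs lay where it was high. On array 1 the median was -0.23 in probes of 40% to 45% G+C, 0.81 at 60% to 65% and 1.90 at 80% to 85%. On array 2 the same medians were -0.26, 0.57 and 1.55. The run means changed less: 239 runs of 60% to 65% had a median of 1.88, 254 runs of 65% to 70% one of 1.99 and 134 runs of 70% to 75% one of 2.12. The share of windows past the threshold in those ranges was 3.99%, 10.6% and 22.9%. After subtraction of the G+C trend the median of the 644 run means was 0.99, and 192 runs (29.8%) kept a mean of 1.2 or more. Every probe stayed past 1.2 in 17 runs, and 2 runs had a mean below 0. Of the lower-GC runs, 320 of 373 (85.8%) kept a mean of 1.2 or more, with a median of 1.73.

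**Figure D4:**
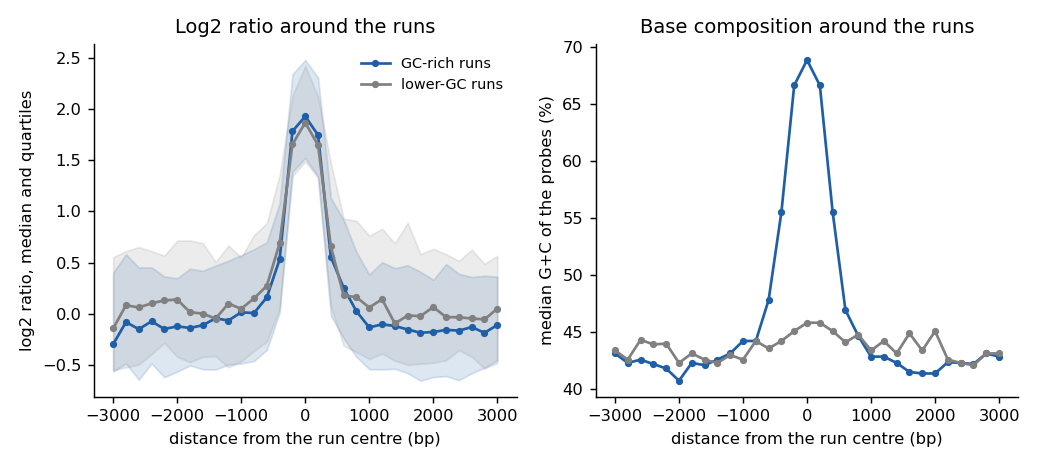
Left, log2 ratio (median and quartiles) and right, median G+C content of kept probes in 200 bp bins of distance from the centre of a run, for GC-rich (blue) and lower-GC (grey) runs. The ratio profiles of both sets overlap, at 1.93 in the centre of GC-rich runs, while G+C content peaks at 68.9% in GC-rich runs and stays under 50% around the lower-GC runs.

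The ratio fell steeply outside the runs, as did the G+C content. The 1254 nearest kept probes beside a run had a median log2 ratio of 0.35 and a median G+C content of 51.1%, and 387 of them (30.9%) were below 0. From the central bin to the bins 600 bp to either side, the median ratio went from 1.93 to 0.16 and 0.26, and the median G+C content from 68.9% to 47.8% and 46.9%. That the centre exceeds the flanks follows from the rule. Inside a run the highest probe had a median G+C content of 68.9% and the lowest probe one of 64.4%. The highest probe held a mean of 5.52 CpG dinucleotides and the lowest 4.16, and it had more of them in 401 runs and fewer in 155.

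Run probes held more CpG dinucleotides than other probes of the same G+C content, a feature that the rule did not use directly. For this comparison, other kept probes outside all runs were weighted to the same array and 2% G+C bins. Run probes held 4.79 ± 1.90 CpG (SD over 2213 probes of about 45 bases), against 3.65 in the other probes. On array 1 the means were 4.68 and 3.56, and on array 2 they were 4.97 and 3.79. The ratio of observed to expected CpG was 0.967 against 0.715, and 0.457 in the lower-GC runs. Probes without any CpG made up 1.04% of the run probes and 8.14% of the other probes. Because CpG number moved with the ratio that chose the runs, these are descriptions with no test, and the part of CpG number in the ratio was not tested.

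**Figure D5:**
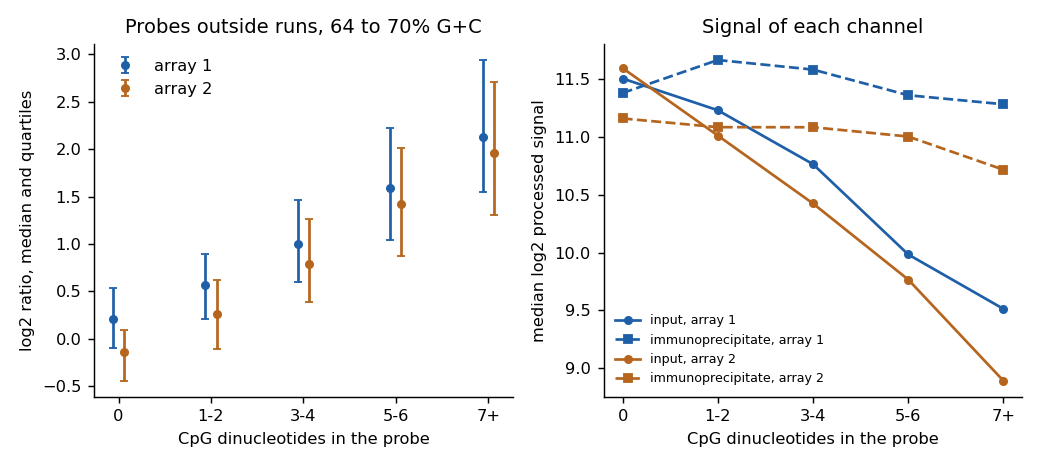
Kept probes outside all runs with 64% to under 70% G+C, by number of CpG dinucleotides (horizontal axis) and array. Left, log2 ratio (median, bars at the quartiles), rising from 0.21 to 2.13 on array 1; right, median log2 signal of input (solid) and immunoprecipitate (dashed), of which the input falls from 11.51 to 9.51 on array 1.

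The same gradient was present outside the runs. Among kept probes of 64% to under 70% G+C that belonged to no run, a range chosen after the values were seen, the median log2 ratio on array 1 was 0.21 in 114 probes with no CpG, 1.00 in 1812 probes with 3 to 4 and 2.13 in 107 probes with 7 or more. On array 2 it was -0.14, 0.79 and 1.96. Mean G+C content moved little over these classes, from 65.3% to 67.0% on array 1. The input signal changed more than the immunoprecipitate. Its median on the log2 scale was 11.51 with no CpG and 9.51 with 7 or more on array 1, and 11.60 and 8.89 on array 2. The immunoprecipitate went from 11.38 to 11.28 and from 11.16 to 10.72.

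In the runs both channels were compared with the other probes of the same G+C content. The mean log2 input signal was 9.72 in run probes and 10.58 in the others, and the mean log2 immunoprecipitate signal was 11.49 and 11.33. The input mean of a run was below the median of its G+C class in 541 of 644 runs (84.0%), by a median over all runs of 0.82. The immunoprecipitate was above it in 385 (59.8%), by a median of 0.19. In 418 runs the shortfall of input was larger than the excess of immunoprecipitate. All run probes were well above background in both channels by the scanner software's call. So were 99.6% of all kept probes in the immunoprecipitate and 99.998% in the input, so this does not set the runs apart. Low input and high immunoprecipitate both raise a ratio, and the rule selects for both.

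The Tcf core motif (CTTTG followed by A or T at each of the next 2 bases, on either strand) was found in the probes of 27 GC-rich runs, 4.19% (95% Wilson interval 2.90% to 6.03%, counting error only). The lower-GC runs held it in 75 of 373 cases, 20.1%. GC-rich windows that were not past the threshold held it in 3.40%, and runs of 3 probes, the same length as a window, in 3.596%. By probe the share was 1.27% in the runs, 0.657% in other probes of the same G+C content and 4.53% in all kept probes. The probes cover only part of the DNA of a run, and a match is a match of letters alone. The 5 such run probes with the highest ratio are printed with the core in capitals, which appears as its reverse complement in Foxn2.
Lmo4 (chr3:144098112-144098156): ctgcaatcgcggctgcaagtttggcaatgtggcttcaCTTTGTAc
Mxd4 (chr5:33249918-33249962): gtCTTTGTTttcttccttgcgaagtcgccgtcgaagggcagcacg
Ssbp3 (chr4:106288726-106288770): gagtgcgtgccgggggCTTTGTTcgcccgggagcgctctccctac
Foxn2 (chr17:86746733-86746777): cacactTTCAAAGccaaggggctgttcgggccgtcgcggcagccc
Crmp1 (chr5:36323336-36323380): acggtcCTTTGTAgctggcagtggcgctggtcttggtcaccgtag
Their log2 ratios were 3.16 for Lmo4, a LIM-only protein, 2.77 for Mxd4, a Max partner, 2.67 for Ssbp3, 2.61 for the forkhead gene Foxn2 and 2.55 for Crmp1. They were chosen after their values were seen. The motif was also present in runs of Jag1, a Notch ligand (mean 1.87), Spry2, an inhibitor of receptor tyrosine kinase signalling (mean 1.94), and Ccne2, a cyclin (mean 2.07).

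A CGG repeat (CGGCGGC on either strand) was more frequent. It occurred in 142 runs, 22.0% (interval 19.0% to 25.4%), and in 18.7% of the runs of 3 probes, against 8.72% of GC-rich windows that were not past the threshold. By probe the shares were 6.87% in the runs, 3.35% in other probes of the same G+C content and 0.257% in all kept probes. The repeat itself contains CpG dinucleotides, in which the run probes were richer. The 5 run probes with the repeat and the highest ratio, again chosen after their values were seen, are printed with the repeat in capitals.
Dpm1 (chr2:168023989-168024033): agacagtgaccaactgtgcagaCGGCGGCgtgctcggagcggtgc
Hey1 (chr3:8673805-8673849): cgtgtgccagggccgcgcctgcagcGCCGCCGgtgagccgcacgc
Slc2a13 (chr15:91655439-91655483): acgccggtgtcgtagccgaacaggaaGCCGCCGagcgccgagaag
Foxe3 (chr4:114301713-114301757): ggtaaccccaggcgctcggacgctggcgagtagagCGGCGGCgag
Wnt4 (chr4:136656159-136656203): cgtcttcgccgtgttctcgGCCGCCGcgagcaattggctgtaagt
Their log2 ratios were 4.61 for Dpm1, a subunit of dolichol-phosphate mannose synthase, 4.36 for Hey1, a Notch target, 4.32 for Slc2a13, 4.04 for Foxe3 and 3.93 for Wnt4.

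The other motifs are given beside GC-rich windows not past the threshold, as a share of windows of 3 probes, while a run may have more. The GC box GGGCGG was in 183 runs (28.4% against 24.0%), and by probe in 9.44% against 10.95% of the other probes of the same G+C content. CCACACC and the E-box CACGTG were in 17 runs each (2.64%), against 2.28% and 3.27% of those windows. By probe CCACACC was in 0.768% of run probes and 1.02% of other probes of the same G+C content, and CACGTG in 0.813% and 1.31%. CCGGAAG, the Ets site, was in 22 runs (3.42% against 3.69% of windows), and by probe in 1.04% against 1.42%. GCGCATGC, the Nrf1 core, was in 6 runs (0.932% against 0.725%), and TGACGTCA, the cyclic AMP response element, in 3 (0.466% against 0.698%). By probe GCGCATGC was in 0.271% against 0.275%, and TGACGTCA in 0.136% against 0.218%. The CCAAT box, searched as ATTGG, was in 76 runs (11.8% against 11.1%), the Sox core ATTGT in 41 (6.37% against 5.50%) and the octamer ATGCAAAT in 1 (0.155% against 0.186%). By probe, ATTGG was in 3.62% of run probes and 3.18% of other probes of the same G+C content, and ATTGT in 1.94% and 1.36%. Stretches of G were rarer in the runs: GGGG, searched on either strand after the values were seen, was in 32.5% of run probes and 50.4% of other probes of the same G+C content. GGGAGG, searched at the same stage, was in 4.65% and 11.1%.

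A probe of the run matched a RefSeq promoter window (250 bases before to 50 after a gene's start, assembly GRCm38.p6) exactly in 299 runs (46.4%). The lower-GC runs did so in 75 cases (20.1%). Among GC-rich windows of 3 probes, however, the share was 41.3% of those past the threshold and 41.7% of those not past it. In 265 of the 299 runs a matched window was that of a gene which the array annotation gave to the run. The others included the Trim28 run, which matched a window of Gm31649. Of 426 matched run probes, 356 lay upstream of the start, and the median position was 79 bases before it. The window reaches 250 bases before the start and only 50 after it. The upstream share and the median position therefore follow largely from the window. The 372 promoters matched had a mean G+C content of 71.7%. The Tcf core was in 5.91% of them and in 4.66% of other promoters weighted to the same G+C content, and the CGG repeat in 43.0% and 43.1%. Over all 32851 promoter windows the shares were 16.9% and 10.1%.

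Of the runs with such matches, the 250 bases before a RefSeq start are printed for E2f1 and Zfand5. A gene can have several starts, so these bases may be transcribed or coding DNA of another transcript, which was not checked. E2f1 is a transcription factor of the cell cycle, and Zfand5 is a zinc finger protein chosen after its values were seen. Each has 2 run probes, in capitals, within the 250 bases before the start. The E2f1 window is on the minus strand of chr2:154569427-154569676 and the Zfand5 window on the plus strand of chr19:21272028-21272277, both in GRCm38.p6.
E2f1: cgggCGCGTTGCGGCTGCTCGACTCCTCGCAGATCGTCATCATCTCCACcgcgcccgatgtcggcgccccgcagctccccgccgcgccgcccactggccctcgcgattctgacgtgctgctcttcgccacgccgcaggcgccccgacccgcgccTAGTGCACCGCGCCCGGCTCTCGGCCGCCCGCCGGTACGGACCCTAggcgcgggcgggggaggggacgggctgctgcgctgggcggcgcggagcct
Zfand5: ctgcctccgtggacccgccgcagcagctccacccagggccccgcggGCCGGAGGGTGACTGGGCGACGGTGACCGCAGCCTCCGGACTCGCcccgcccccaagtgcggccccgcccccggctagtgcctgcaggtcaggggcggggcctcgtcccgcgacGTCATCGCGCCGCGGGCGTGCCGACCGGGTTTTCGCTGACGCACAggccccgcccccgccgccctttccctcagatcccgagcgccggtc
The E2f1 run had probes at 3.35, 1.62 and 2.07, of which the first 2 are the ones in capitals. The Zfand5 run had a mean of 2.81 ± 1.15 over 3 probes. These stretches held 43 and 35 CpG dinucleotides.

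By the array annotation the runs named 665 genes. A total of 5281 genes had a GC-rich window of 3 kept probes, so that 12.6% were named, and the counts below are read against that share. Since the lists were chosen with results known, no list was tested. Most lists held few such genes, so that shares above 12.6% rest on small counts as much as shares below it. Genes with more GC-rich windows had more chances to be named, and the shares were not adjusted for this. Of 45 runs (6.99%) the probes named a pair of genes, against 6.23% of GC-rich windows not past the threshold, and 19 runs had no gene name. Ebf3, Crmp1, Ran, Macir and AK122525 were named by 2 runs each. The probes of 4 runs named a miRNA.

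Among components of the Wnt pathway, 2 of 23 genes with a GC-rich window were named (8.70%). These were Tle1, a Groucho-type corepressor of Tcf proteins, with probes at 2.14, 1.48, 1.94 and 1.89, and Lrp5, a Wnt coreceptor, with 1.95, 1.77, 1.43 and 1.33. Both had means (1.86 and 1.62) below the median of the runs. Lower-GC runs named 2.54% of the 15225 genes with a lower-GC window, and 3 of 32 in this list: Axin2, Ctbp2 and Sfrp2. Of the Wnt ligands 1 of 9 was named: Wnt4, with probes at 2.94, 3.93, 1.86 and 1.52. Of the Frizzled receptors 2 of 8 were named, Fzd3 by a run shared with Fbxo16 (3.20, 2.04 and 3.50) and Fzd1 (mean 1.85).

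Of genes tied to pluripotency, 4 of 12 were named, a share of 33.3%. The run of Trim28, a corepressor, had probes at 2.15, 2.67 and 3.05, that of the homeobox gene Gbx2 had 3.44, 1.92 and 2.18, that of Foxd3 had 2.40, 3.71 and 1.26, and Klf5 had a mean of 1.97. All 3 Trim28 and Gbx2 values stood clear of the threshold, and 1 Foxd3 probe did not. Lower-GC runs named 13 of the 29 genes of this list that had any lower-GC window, against the 2.54% over all genes. Among them were Sox2, Pou5f1, Klf2 and Tdgf1, and also Trim28 and Gbx2, which had runs of both kinds. In the Nodal and BMP list 1 of 16 was named, the inhibitory Smad7 (mean 2.10). In the Fgf and Erk list 3 of 12 were, the pathway inhibitors Spred1 (2.32), Spry2 (1.94) and Spry1 (1.77).

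Chromatin and cell cycle genes gave small counts. Of the Polycomb list 3 of 13 were named: Rybp with a mean of 2.35, and the core subunits Eed and Ezh2 with means of 1.51 and 1.35. The Ezh2 probes, at 1.42, 1.36 and 1.28, gave a mean that ranked 638 of 644. Of the cell cycle list 3 of 14 were named: E2f1 (2.35), Ccne2 (2.07) and the Cdk inhibitor gene Cdkn2a (2.04). Cdkn2a had 5 probes, at 1.55, 2.51, 2.46, 2.40 and 1.25, with the 3 high ones matching RefSeq promoter windows, which for this run were those of Cdkn2a and Gm12610.

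Among developmental regulators, forkhead genes were named in 8 of 26 cases (30.8%): Foxe1, Foxd2, Foxd3, Foxe3, Foxa1, Foxn2, Foxd1 and Foxl2. Of Hox genes 4 of 12 were named, and 3 of these, Hoxd13 (in a run shared with Evx2, at 2.17, 1.71, 1.46 and 4.57), Hoxd9 and Hoxd11, lie in 1 cluster. Hoxa13 was the other, with a mean of 2.15. In a pooled list of homeobox families, among them Irx, Dlx, Lhx, Nkx, Msx, Otx, Barhl and Lmx, 5 of 33 genes were named, led by Nkx2-1 (3.14, 1.78 and 3.29) and Nkx2-4 (mean 2.495). Of 8 Sox, 6 T-box, 3 Pax, 3 Zic and 2 Gata genes with a GC-rich window, none was named, counts too small to differ visibly from 12.6%. Lower-GC runs named 2 of 15 Sox genes (Sox2 and Sox12), 2 of 9 Pax genes (Pax4 and Pax6) and 2 of 4 Zic genes (Zic2 and Zic5). They named 0 of 12 T-box and 0 of 5 Gata genes, and 2.54% of all genes with a lower-GC window. Of Krueppel-like factors, GC-rich runs named 4 of 12: Klf16 (2.66), Klf5, Klf11 (1.90) and Klf13 (1.74).

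Large families outside development were near or below the share over all genes. The counts were 9 of 71 Zfp genes, 9 of 120 solute carriers, 4 of 30 potassium channels and 2 of 22 cytosolic ribosomal proteins. The potassium channels included Kcnh2 and Kcnc1, with means of 2.60 and 2.23. Of 876 olfactory receptor genes on the autosomes of the arrays, 1 had a GC-rich window and it was not named.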

How the data were processed

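Immunoprecipitated DNA (Cy5) and input DNA (Cy3) were hybridised to 2 promoter arrays, 1 sample each, with different probes. Per the file headers, spot values come from Agilent Feature Extraction 9.1.1.1. The deposited intensity of each channel had its background subtracted and was scaled linearly for its dye, as those headers record. The log10 ratio that the authors deposited was used as an alternative and gave the same runs. The series value table and the authors' calls of bound regions were not used.

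Here, control spots, sex chromosomes and spots with a substituted signal in either channel were left out, log2 ratios of the processed signals were centred on each array's median, and runs were found by the rule in the opening. G+C, CpG and motifs were counted in the probe sequences (both strands). Probes were matched exactly to RefSeq promoter windows, and gene names updated with a RefSeq table of GRCm38.p6. The run finder was tried on runs planted in simulated noise that did not depend on G+C content. That trial concerned the code and not the runs reported here. The genes named were the 15 runs of highest mean, the 6 of most probes, the 6 highest after the G+C trend, 3 on each side of each threshold and up to 4 of each list or family, of which some are not reported here. The members and lists were chosen with earlier results of these data known. The number of arrays limits the precision, and no test was possible. Python 3.11.15, pandas 2.3.3, statsmodels 0.14.6, R 4.3.3 and limma 3.58.1 were used. Alternatives changed the signal, the spots kept, the thresholds and the trend subtracted.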

Additional observations from a re-analysis of the deposited data

Results flagged for a closer look

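The X chromosome was left out of the runs above. The same rule applied to it gave 14 GC-rich runs, with 16 of 284 GC-rich windows past the threshold (5.63%), close to the 5.39% of the autosomes on the same array. The highest were those of Hmgb3 (mean log2 ratio 2.14 ± 0.57, SD over 3 probes) and Rbbp7 (2.08 ± 0.42 over 4 probes). No control immunoprecipitation gives a level to set this against, and the cause of the signal was not tested.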

How the results depend on the processing

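No paired analysis was possible because each group is 1 array and no test was made. The number of GC-rich runs, 644, was 410 after normexp background correction, 319 after subtraction of a trend with intensity and 28 after subtraction of the G+C trend before the runs were found. Of the 644 runs, 400, 272 and 28 had a probe in a GC-rich run under these settings, in the same order. The number of runs was 1004 and 303 with thresholds of 1.0 and 1.5, 199 with 4 or more probes and 405 at 65% G+C. The share with a Tcf core (4.19%) was 2.68% after normexp, 0 of the 28 runs after the G+C trend (which allows a share of up to 10.7%), 1.98% at a threshold of 1.5 and 2.22% at 65% G+C. The share with a CGG repeat (22.0%) was 28.6% after the G+C trend, 18.3% and 26.1% at thresholds of 1.0 and 1.5, 29.6% with 4 or more probes and 26.4% at 65% G+C. The other alternatives moved these values by less than 1.5 times for the count or within the interval for the shares. Of 70 named runs, 56 lost more than 1 SD over their probes under the G+C trend, 9 under the intensity trend and 6 under normexp. None changed sign under these settings. The deposited log ratio gave the same 644 runs and the same shares as the ratio used here, so it was no separate check. The causes were not tested. Without replicate arrays or a control immunoprecipitation, the error of each ratio is unknown, and leaving out a replicate could not be tried.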
